A study of Mus musculus with 4 samples.

Results

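The respiratory chain and the ATP synthase sit in the inner membrane of mitochondria and make most of the ATP of resting cells. Complex I takes electrons from NADH and complex II from succinate, ubiquinone carries them to complex III, cytochrome c carries them on to complex IV, and the proton gradient built on the way drives complex V, the ATP synthase. Long-lived blood stem cells are known for relying little on this route while quiescent, and progenitors use it more as they start to divide and differentiate. Most subunits are encoded in the nucleus and made in matched amounts, and a few core subunits come from mitochondrial DNA.

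Members were the nuclear genes whose symbols fit the names of NADH dehydrogenase (Nduf), succinate dehydrogenase (Sdh), ubiquinol-cytochrome c reductase (Uqcr), cytochrome c oxidase (Cox4 to Cox8) and ATP synthase (Atp5) subunits. They numbered 81 of 18194 genes tested, with 35 in complex I, 4 in complex II, 8 in complex III, 17 in complex IV and 17 in complex V. The arrays hold RNA of bone marrow cells sorted for absence of lineage markers and presence of c-Kit and Sca-1, from C57BL/6 (B6) mice aged 8 weeks, 2 arrays labelled WT and 2 labelled Alox15-/-. The design asks how the expression profile of these haematopoietic stem and progenitor cells differs between wild-type mice and mice without Alox15, a lipoxygenase gene. The labels call replicates biological and state neither animals nor pools, so p-values here reflect only how far these samples lie apart, and that spread may be technical.

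Values are log2 RMA signals of Affymetrix probe sets, with 1 probe set per gene, and 1 unit is a 2-fold step. Alox15 itself went against the labels, with 4.63 and 4.35 in WT, compared with 10.68 and 10.75 in the group named for its loss (limma adjusted p = 0.00133, and 0.172 to 0.328 when any 1 array was left out). Whether its probe set lies in the deleted part is not stated in the labels. Directions are given by label throughout, and each would turn if the labels of the groups were exchanged, which was not tested. All 6 measured markers listed for the gated cells were above the bacterial controls described next, and Kit read 10.23 to 10.63, Cd34 11.50 to 11.62 and Flt3 10.86 to 10.98. These controls are 27 probe sets that should carry no mouse signal, with a maximum of 4.95 to 5.17 by array. Of 6 T and NK cell markers, Cd3e and Cd3g were below them on all 4 arrays, whereas Cd3d, Cd4, Cd8a and Nkg7 were above them on all 4. In bulk RNA, fewer cells of a type and less RNA per cell cannot be told apart. Of the members, 79 were above that control on all 4 arrays, and Cox7a1 and Cox7b2 were above it on none.

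Promoters of the members were searched for 4 motifs, each found in a minority of them. RefSeq promoter windows (GRCm38.p6, 250 bases before to 50 after the start) were found for 66 of the 81 members. The motif of NRF-1, a transcription factor known for activating nuclear genes of respiration, was searched on both strands as GCGC, any 1 base, then TGCGC. It was in at least 1 window of 22.7% of members (15 of 66) and of 8.61% of the 14453 tested genes with a window. The 66 members had 71 windows, and all motif shares here are of genes. The ETS motif CCGGAAG, bound by GABP among others, was in 25.8% of members and 15% of tested genes. The YY1 motif AANATGGC was in 22.7% and 8.05%, and the motif of estrogen-related receptors, TCAAGGTCA, in 3.03% and 0.401%. No base of a member promoter belonged to more than 1 of these motifs. Complex V had the NRF-1 motif in 6 of 15 genes with a window, and 11 of the 15 members with the YY1 motif were in complex I. Windows of 90 bases, all before the start site, are shown for 1 member each of complexes I, II, IV and V, with the NRF-1 motif in capitals and, for Sdhd, the ETS motif as well. The Ndufs5 window lies at chr4:123718235-123718324, that of Sdhd at chr9:50603879-50603968, that of Cox6a1 at chr5:115349071-115349160 and that of Atp5g2 at chr15:102671048-102671137, all on the minus strand of GRCm38.p6.
Ndufs5: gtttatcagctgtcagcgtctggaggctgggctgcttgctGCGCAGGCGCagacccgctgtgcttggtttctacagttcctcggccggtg
Sdhd: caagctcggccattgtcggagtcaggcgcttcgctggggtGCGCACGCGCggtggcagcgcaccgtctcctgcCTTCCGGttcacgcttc
Cox6a1: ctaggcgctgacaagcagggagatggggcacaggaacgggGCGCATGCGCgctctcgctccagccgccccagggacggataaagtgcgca
Atp5g2: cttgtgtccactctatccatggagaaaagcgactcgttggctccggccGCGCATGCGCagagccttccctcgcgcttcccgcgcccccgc
In the expression values, the 15 members with the NRF-1 motif had a median difference of 0.10 and the 51 without it 0.06. The other motifs went the opposite way. Medians with and without were 0.04 and 0.07 for ETS, and 0.05 and 0.085 for YY1. For the estrogen-related receptor motif they were 0.009 (2 members) and 0.08. A motif match is a run of letters and says nothing about binding in these cells.

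Across all 81 members the difference between the arrays labelled Alox15-/- and WT was small and mostly of 1 sign. The median difference was 0.09, against 0.02 over all genes tested. Members above 0 numbered 62 of 81 (76.5%), against 53.7% of all genes, and 19 were below 0. None passed the threshold of 0.05 for the limma p adjusted over all genes, where 0.0055% of all genes did (1 gene, Alox15). The lowest adjusted limma p of a member was 0.629. With a prior variance that depends on signal, limma also called 0 members, and 22 of 18194 genes. At an unadjusted limma p under 0.05 there were 3 members higher and 0 lower, or 3 of 81, where 7.77% of all genes lay (4.2% higher and 3.57% lower). That share of members was not above the share of all genes. The count depended on the filter. Without the dimmest 30 percent of genes it was 5 of 79 members, all higher, where 9.25% of the genes kept lay in either direction. It also depended on the variance prior: with the prior that follows signal, 13 members were higher and 1 lower at that level, where 8.68% of all genes lay.

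Separation of the 2 groups was more frequent among members than over all genes, and in 1 direction. The groups did not overlap for 42 members (51.9%), against 38.5% of all genes. Of these, 36 were higher in the arrays labelled Alox15-/-, where 21.4% of all genes were, and 6 were lower, where 17.1% of all genes were. Members rest on the same 4 arrays and are not independent of each other, so these shares describe the list and are no test of it.

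The size of any change was bounded more closely than its sign. Standard errors of the members ran from 0.13 to 0.38, with a median of 0.14 (limma, n = 2 arrays each). For 80 of 81 members the 95% interval of the difference lay within a 2-fold change either way, compared with 91.3% of all genes. For 63 members it lay within 1.5-fold (77.8%, against 55.4% of all genes). Those intervals are not adjusted for the number of genes. The share within 1.5-fold rose with signal, from 27.3% of members with a mean under 8 to 100% at 12 or more. The comparisons with all genes were not matched for signal. The exception at 2-fold was Cox4i2, with an interval from -0.24 to 1.56. Only 8 members had an absolute difference over 0.3, and 36 were under 0.1.

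**Figure D1:**
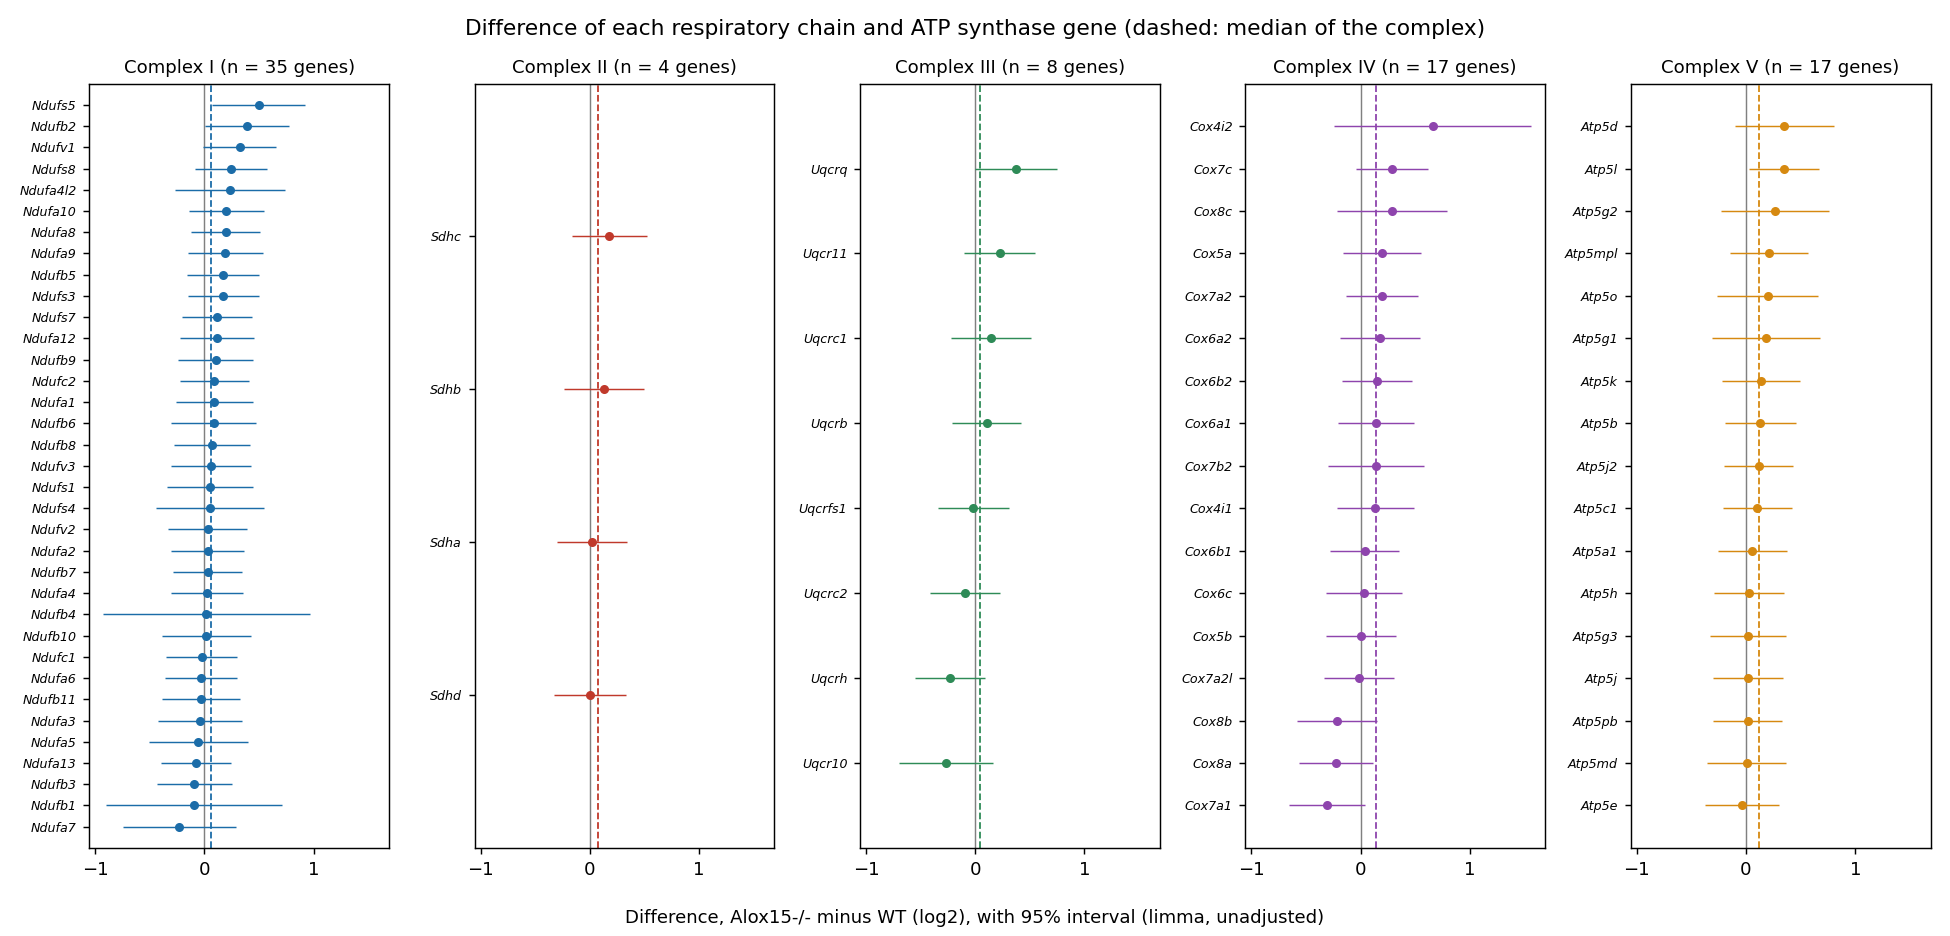
Difference (Alox15-/- minus WT, log2) of each of the 81 genes, by complex, with the unadjusted 95% interval from limma; the dashed line is the median of the complex. Points cluster between 0 and 0.20 in complexes I, II, IV and V, all but 3 intervals cross 0, and complex III has 4 genes on each side.

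The shift was not the same on both arrays of a group. Relative to each gene's mean over the 4 arrays, the members averaged -0.05 in WT replicate 1, -0.04 in WT replicate 2, 0.01 in Alox15-/- replicate 1 and 0.08 in Alox15-/- replicate 2. The arrays labelled Alox15-/- thus both lay above the WT arrays, but differed from each other by 0.07, close to the 0.09 between the group means. Alox15-/- replicate 2 alone was the highest array for 39 members, and a WT array alone was the lowest for 63. Without Alox15-/- replicate 2 the median of the members was 0.05 and 54 were above 0. Without WT replicate 1 the median was 0.10 and 53 were above 0.

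**Figure D2:**
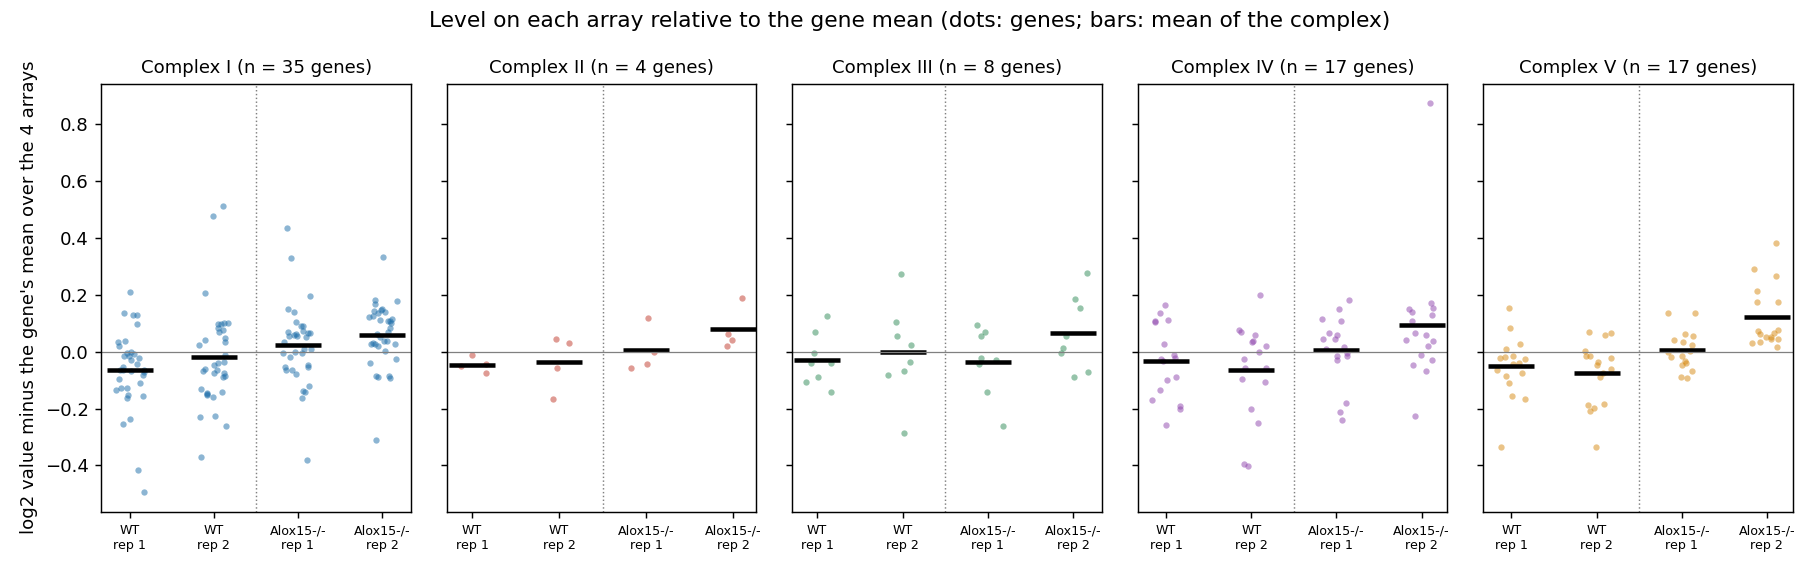
Log2 value of each gene minus its own mean over the 4 arrays, by array and complex; dots are genes and black bars are means of the complex. Alox15-/- replicate 2 has the highest mean in each complex, 0.12 in complex V, while the WT means lie between -0.08 and 0.00. In complex III, Alox15-/- replicate 1 has the lowest mean, -0.0349, below -0.0285 and -0.0014 in WT.

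Marker lists of other cell types, of the gate and of dividing cells were read on the same arrays, and none of their genes passed the adjusted limma threshold. At an unadjusted limma p under 0.05 lay 4.2% of all genes higher and 3.57% lower. Markers at that level were 6 granulocyte-monocyte (all higher), 4 neutrophil higher and 1 lower, and 5 proliferation higher and 1 lower. In the other lists Klf1 (erythroid, 0.87), Igll1 (B cell, 0.57), Nkg7 (T and NK cell) and Cd48 (gate) were higher. Ebf1 (B cell) was lower, at -0.42. Of 7 erythroid markers 3 were above 0, with a median of -0.01. Of 6 B cell markers 4 were above 0, with a median of 0.09. All 9 measured granulocyte-monocyte markers were above 0, 7 without overlap (21.4% of all genes were higher without overlap), with a median of 0.62, and their mean relative level was -0.47 and -0.35 in WT, compared with 0.33 and 0.49 under the Alox15-/- label. Mature neutrophil markers had 9 of 10 above 0, with levels of -0.73 and -0.02 in WT, compared with 0.52 and 0.22 under the Alox15-/- label, and Mmp8 was below the bacterial control throughout. Of 12 proliferation markers of G2 and M phase, 11 were above 0 without overlap. Mki67 was the other, at -0.63, also without overlap. The median of the 12 was 0.38, and their level was -0.26 and -0.05 in WT, compared with 0.13 and 0.18 under the Alox15-/- label. Among the 6 gate markers Cd48 differed by 0.43 and Slamf1 by 0.32, Kit by -0.27 and Procr by -0.25, all without overlap, and Cd34 and Flt3 overlapped. Of the 6 T and NK cell markers 5 were above 0, with Nkg7 at 0.51 and Cd4 at -0.18. Signal at the 2 ends of the Gapdh transcript, a sign of RNA quality, lay 2.37 and 2.39 apart in WT, compared with 2.14 and 2.17 under the Alox15-/- label. For Actb the same measure was -0.23 and -0.19 in WT, compared with -0.13 and -0.28, and the groups overlapped. The part of these in the members' shift was not tested.

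The 5 complexes had medians on the same side of 0. The median difference was 0.06 in complex I, 0.08 in complex II, 0.05 in complex III, 0.14 in complex IV and 0.12 in complex V. The highest and lowest of these medians lie 0.09 apart. Genes above 0 were 26 of 35 in complex I, 3 of 4 in complex II, 4 of 8 in complex III, 13 of 17 in complex IV and 16 of 17 in complex V. No test between complexes was made, since their genes share the 4 arrays. Complex V had the most even sign, yet its mean was 0.01 and 0.12 on the arrays labelled Alox15-/-, and its median was 0.05 without replicate 2 of that group. Single arrays also moved other medians, to 0.11 in complex I without WT replicate 1, 0.0097 in complex II without Alox15-/- replicate 2 and 0.06 in complex IV without WT replicate 2. The complex III median was -0.0038 without Alox15-/- replicate 2. Counting each probe set gave medians of 0.03 in complex II, -0.02 in complex III (16 probe sets) and 0.04 in complex IV.

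In complex I, the NADH-oxidising end of the matrix arm (N module) had 7 of 9 genes above 0 and a median of 0.05. Ndufv1, which holds the flavin that accepts electrons from NADH, read 10.83 and 10.70 in WT, compared with 11.12 and 11.05 under the Alox15-/- label. The groups did not overlap, and the difference was 0.32 ± 0.13 (SE; limma adjusted p = 0.657). Its other probe sets gave 0.26 and 0.37, so all 3 were higher by a like amount. The neighbouring electron carriers Ndufs1 and Ndufv2 differed by 0.05 and 0.03, with overlapping groups. Ndufa7, an accessory subunit, had the lowest difference of the complex at -0.23, but its second array labelled Alox15-/- (9.36) lay above both WT arrays (9.33 and 9.31), and its other probe sets ran from -0.56 to 0.10.

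The ubiquinone-reducing part of the matrix arm (Q module) had 4 of 5 genes above 0, and those 4 without overlap (21.4% over all genes), with a median of 0.17. They were the iron-sulfur subunit Ndufs8 at 0.24, Ndufa9 at 0.19, Ndufs3 at 0.17 and the iron-sulfur subunit Ndufs7 at 0.12, whereas Ndufa5 differed by -0.06 with overlap. Ndufs8 was read by 6 probe sets, all of them above 0 (0.17 to 0.35). At the one used it read 10.32 and 10.24 in WT, compared with 10.46 and 10.58 under the Alox15-/- label (adjusted p = 0.711, limma). All 6 nuclear core subunits of complex I that were measured lay above 0, with a median of 0.14, and 0 of them passed the threshold (the lowest unadjusted limma p was 0.0563).

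The membrane arm, which pumps protons, had 13 of 19 genes above 0 and a median of 0.07, and it held the largest differences of the complex. Ndufs5, an accessory subunit, read 7.56 and 7.53 in WT, compared with 8.23 and 7.86 under the Alox15-/- label. It was higher on both of those arrays, by 0.50 ± 0.17 (SE), with an unadjusted limma p of 0.0298 and an adjusted p of 0.629. Leaving out 1 array gave 0.31 to 0.68. Ndufb2, also accessory, read 8.998 and 8.92 in WT, compared with 9.21 and 9.49 under the Alox15-/- label, a difference of 0.39 ± 0.15 (SE; limma adjusted p = 0.642). A second Ndufb2 probe set gave 0.50 without overlap and the third gave -0.18, also without overlap, so the probe sets of this gene disagree. The remaining genes of the arm lay between -0.10 and 0.20.

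Ndufb1 and Ndufb4 could not be judged. Ndufb1 read 6.29 and 7.22 in WT, and Ndufb4 read 5.97 and 6.94, a gap between replicates larger than any difference between groups in the family. Their intervals ran from -0.90 to 0.71 and from -0.93 to 0.97. Ndufa4, named for complex I but known as a complex IV protein, differed by 0.02, and its hypoxia-linked paralog Ndufa4l2 by 0.24 with overlapping groups. Counting both with complex IV left the medians of complexes I and IV at 0.06 and 0.14.

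The assembly factors of complex I, which build it but do not stay in it, were listed together with Ndufab1, the acyl carrier protein that is also a subunit. Of 14 measured, 10 were above 0, with a median of 0.12. None passed the adjusted limma threshold, and 2 were higher at an unadjusted p under 0.05, where 4.2% of all genes lay. Acad9 read 8.09 and 8.02 in WT, compared with 8.57 and 8.33 under the Alox15-/- label, a difference of 0.40, but -0.53 at its dimmest probe set. Ndufab1 read 9.84 and 9.95 against 10.23 and 10.28, a difference of 0.36 ± 0.13 (SE; limma adjusted p = 0.630). Ndufaf3 had the lowest difference, -0.30, with overlap and a range from -0.72 to 0.12 without 1 array.

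Complex II, which is also the succinate dehydrogenase of the citric acid cycle, had 4 genes, all measured. The membrane anchor Sdhc read 10.44 and 10.29 in WT, compared with 10.57 and 10.52 under the Alox15-/- label, the only 1 of the 4 without overlap, at 0.18 ± 0.13 (SE). The iron-sulfur subunit Sdhb differed by 0.13, with 10.05 on both WT replicate 2 and Alox15-/- replicate 1. The flavoprotein Sdha read 12.41 to 12.49 on all 4 arrays and differed by 0.02, and its dimmer probe sets gave 0.10, -0.18 and -0.29. The second anchor Sdhd read 11.21 and 11.30 in each group, a difference of -0.0006. Complex II therefore showed no gene with an unadjusted limma p under 0.05, and all 4 intervals lay within 1.5-fold.

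The complex II assembly factors had a median of -0.37, beside 0.08 for its subunits, and the gap was not tested. Sdhaf1 read 9.46 and 9.54 in WT, compared with 9.17 and 9.02 under the Alox15-/- label, a difference of -0.40 ± 0.14 (SE; limma adjusted p = 0.627, unadjusted p = 0.0294). Sdhaf2 and Sdhaf3 each differed by -0.37 without overlap, and Sdhaf4 by 0.02 with overlap. That is 3 of 4 lower without overlap, where 17.1% of all genes were, and 0 of 4 past the threshold. Alox15-/- replicate 2 set much of the Sdhaf2 value, which was -0.09 without it.

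Complex III was split. Among its small subunits Uqcrq, the ubiquinone-binding protein, read 8.94 and 8.75 in WT, compared with 9.13 and 9.31 under the Alox15-/- label, a difference of 0.37 ± 0.15 (SE; limma adjusted p = 0.649). Its other probe sets gave 0.27 and 0.19, both below the bacterial control on all arrays, and -0.53. Uqcr11 differed by 0.22 and Uqcrb by 0.11, each without overlap. Uqcrh, the hinge protein that helps cytochrome c dock, read 11.23 and 11.21 in WT and lay lower on both other arrays, at 10.97 and 11.02, a difference of -0.23 ± 0.13 (SE; limma adjusted p = 0.711). Uqcr10 had the lowest value, -0.27, but its WT replicate 1 and Alox15-/- replicate 2 both read 9.63. Its other probe sets gave -0.76 and -0.62, above the bacterial control on all arrays and also with overlapping groups.

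The catalytic and core subunits of complex III differed less. The Rieske iron-sulfur protein Uqcrfs1 read 9.25 and 9.34 in WT, compared with 9.26 and 9.30 under the Alox15-/- label, a difference of -0.02. The core protein Uqcrc1 differed by 0.14 with overlap and Uqcrc2 by -0.09 without. Cyc1, the cytochrome c1 subunit whose symbol lies outside the rule, read 10.11 and 9.86 in WT, compared with 10.20 and 10.22 under the Alox15-/- label, a difference of 0.23. Of the 6 assembly factors 5 were below 0. Ttc19 read 9.71 and 9.66 in WT, compared with 9.06 and 9.13 under the Alox15-/- label, a difference of -0.59 ± 0.13 (SE; limma adjusted p = 0.503, unadjusted p = 0.00471). It lay between -0.63 and -0.56 without any 1 array, and is larger than the difference of any complex III subunit at the probe set used. The other Uqcr10 probe sets, at -0.76 and -0.62, differed more.

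Complex IV, which passes electrons to oxygen, has paired isoforms for several subunits. The general isoforms were Cox4i1 at 0.13, Cox6a1 at 0.14, Cox6b1 at 0.04, Cox7a2 at 0.20 and Cox8a at -0.23. All were without overlap, as were 38.5% of all genes in either direction. The other probe set of Cox7a2 gave -0.06 with overlap, and those of Cox6a1 and Cox6b1 gave 0.29 and 0.21 without overlap. Cox8a read 9.38 and 9.28 in WT, compared with 9.04 and 9.17 under the Alox15-/- label, and its other probe sets gave -0.03 and, below the bacterial control, -0.21. The remaining widely expressed subunits Cox5a, Cox5b, Cox6c and Cox7c differed by 0.20, 0.01, 0.03 and 0.29. Cox5b was read by 6 probe sets, of which the 4 brightest gave 0.01 to 0.03. Cox7c read 6.31 and 6.41 in WT, compared with 6.69 and 6.61 under the Alox15-/- label (limma adjusted p = 0.677).

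The tissue isoforms ranged from below background to clearly detected. Cox4i2, known from lung and from hypoxia, read 5.74 and 5.59 in WT, compared with 5.78 and 6.87 under the Alox15-/- label. Its difference of 0.66 ± 0.36 (SE) was the largest of the family at the probe sets used, but rested on 1 array. Without Alox15-/- replicate 2 the difference was 0.12. Cox7a1, the heart and muscle isoform, read 4.68 and 4.77 in WT, compared with 4.33 and 4.50 under the Alox15-/- label, all below the bacterial control, so its -0.31 is not a measured change of level. Cox7b2, a testis isoform, was also below it on all arrays. Cox8b, another heart and muscle isoform, differed by -0.22, and Cox6a2 and Cox8c by 0.18 and 0.29. Cox6b2, known from testis, was well above the control, at 8.77 and 8.80 in WT, compared with 8.96 and 8.90, and its difference was 0.15, or 0.11 to 0.18 without any 1 array. Cox7a2l, a factor that joins complexes III and IV into supercomplexes, read 12.80 to 12.87 on the 4 arrays and differed by -0.01.

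Among 20 measured complex IV assembly factors 11 were above 0, with a median of 0.01. None passed the adjusted limma threshold, and 1 was higher at an unadjusted p under 0.05, against 4.2% of all genes. Coa6, which helps load copper, read 7.63 on both WT arrays, compared with 7.99 and 8.38 under the Alox15-/- label, a difference of 0.56 ± 0.17 (SE; limma adjusted p = 0.611). Cox16 differed by -0.43, and by 0.46 at its dimmest probe set.

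In complex V, the F1 head and its stalk, where ATP is made, had 4 of 5 genes above 0, and those 4 without overlap (21.4% over all genes). The catalytic beta subunit gene Atp5b read 12.52 and 12.61 in WT, compared with 12.68 and 12.71 under the Alox15-/- label, a difference of 0.13. The alpha subunit gene Atp5a1 differed by 0.06 and the gamma subunit gene Atp5c1 by 0.10. The delta subunit gene Atp5d read 10.64 and 10.60 in WT, compared with 10.76 and 11.18 under the Alox15-/- label, and its 0.35 became 0.14 without Alox15-/- replicate 2. Atp5e, the epsilon subunit gene, was the only complex V gene below 0, at -0.04.

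The membrane part of the ATP synthase held the third member with an unadjusted limma p under 0.05. Atp5l, the g subunit gene, read 9.08 and 9.06 in WT, compared with 9.38 and 9.46 under the Alox15-/- label. The replicates lay close together and the groups apart, with a difference of 0.35 ± 0.13 (SE; limma adjusted p = 0.630, unadjusted p = 0.0372) and 0.31 to 0.39 without any 1 array. Atp5mpl, Atp5k and Atp5j2, further subunits of this part, differed by 0.21, 0.14 and 0.12 without overlap, and Atp5md by 0.005. The c-ring genes, which encode the same mature rotor protein, were Atp5g2 at 0.27, Atp5g1 at 0.18 and Atp5g3 at 0.02, all with overlapping groups. The peripheral stalk genes Atp5o, Atp5h, Atp5j and Atp5pb lay at 0.20, 0.03, 0.02 and 0.02, all with overlap at the probe set used. Second probe sets of Atp5o, Atp5h and Atp5pb gave 0.32, 0.12 and 0.19, each higher without overlap (21.4% over all genes). Atp5j had no other probe set. The assembly and regulatory factors were 4 of 4 above 0, with Atpaf1 at 0.34 and Atpaf2 at 0.03.

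**Figure D3:**
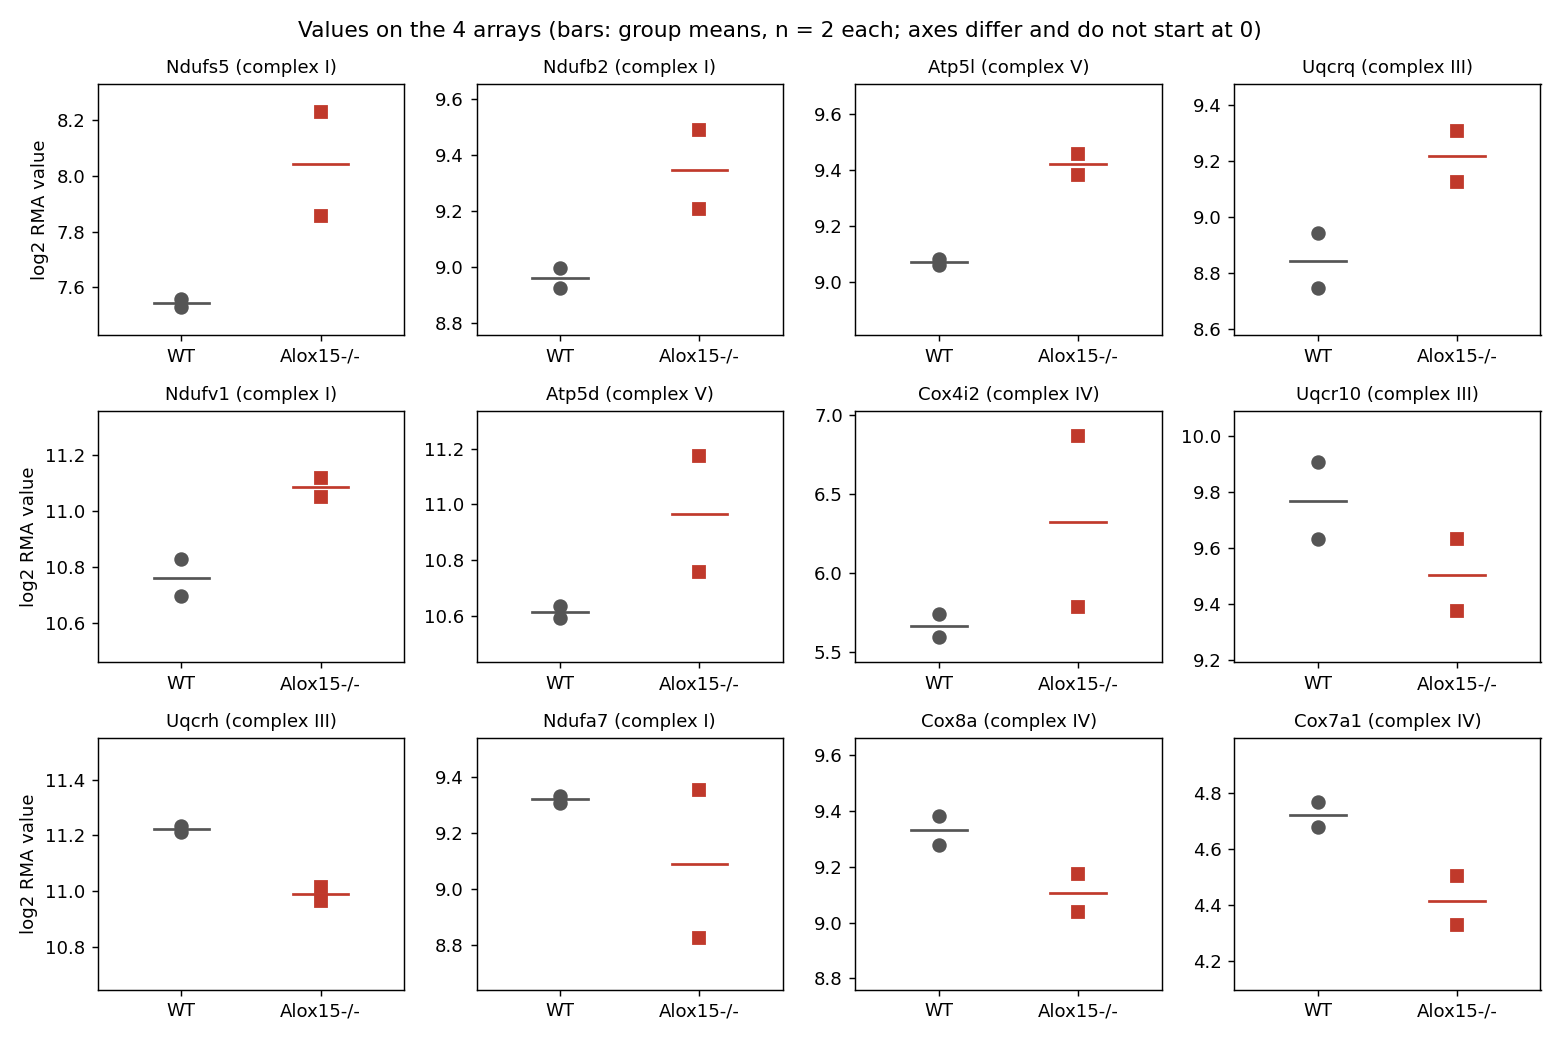
Log2 RMA values on the 4 arrays for 12 genes with the highest or lowest differences of their complexes; bars are group means (n = 2 each), and the axes differ between panels. Ndufs5, Atp5l, Ndufv1 and Uqcrh have groups apart, while Cox4i2 and Atp5d rest on 1 array labelled Alox15-/- and Ndufa7 and Uqcr10 overlap or touch.

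Probe sets of the same gene gave a second reading. Of 164 probe sets, 113 were above 0 and 51 below, with a median of 0.07. Of the 48 members with several probe sets, 17 had at least 1 of opposite sign to the one used. Signal strength went with the size of the difference. The 17 members with a mean signal of 12 or more lay between -0.08 and 0.14 with a median of 0.03. The 11 members under 8 lay between -0.31 and 0.66.

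**Figure D4:**
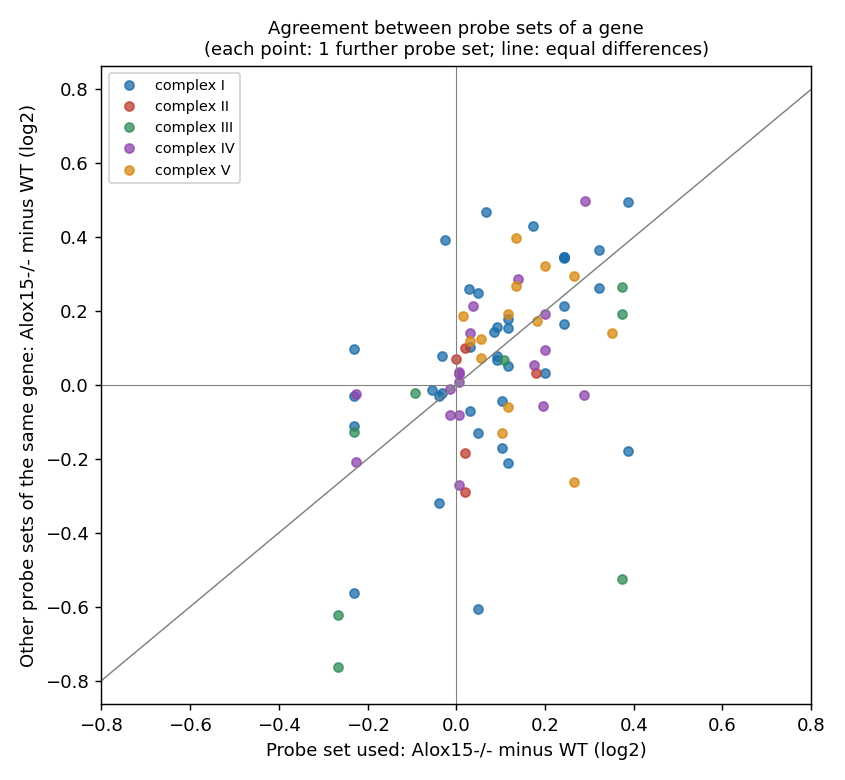
Difference of the probe set used (x axis) against the difference of each further probe set of the same gene (y axis), both Alox15-/- minus WT in log2, coloured by complex; the diagonal marks equal differences. Points spread widely about the diagonal, and Uqcrq and Ndufb2 have probe sets on both sides of 0.

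The electron carriers between the complexes, and the enzymes that make or feed ubiquinone, had 13 of 19 above 0 with a median of 0.08. Cycs, cytochrome c, read 11.61 and 11.68 in WT, compared with 11.59 and 11.87 under the Alox15-/- label, a difference of 0.08. Pdss2, which makes the ubiquinone tail, read 9.18 and 9.40 in WT, compared with 8.69 and 8.67 under the Alox15-/- label, a difference of -0.61 ± 0.14 (SE; limma adjusted p = 0.556). Coq7, a later enzyme of the pathway, differed by 0.37 ± 0.13 (SE; limma adjusted p = 0.630). ND5, a complex I core subunit encoded in mitochondrial DNA, was the only such gene with a probe set of its own, and read 12.38 and 12.26 in WT, compared with 12.44 and 12.45 under the Alox15-/- label.

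Members are spread over the genome, and 4 lie on chromosome 11 with Alox15. These were Uqcrq at 0.37, Atp5g1 at 0.18, Atp5h at 0.03 and Uqcr10 at -0.27. Without them the median of all members was 0.09, as with them.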

How the data were processed

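The deposited table gives log2 values of 45101 probe sets on 4 arrays. Per the submitters' processing notes they come from Affymetrix Expression Console 1.1 with RMA, which subtracts background, quantile-normalizes and summarises probe sets. No genome build is given in the sources used here. The labelling kit named in the labels' protocols makes sense targets, whereas the probe sets belong to a design for antisense ones. Values are used as deposited.

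Probe sets with 1 symbol in the platform annotation (34958, beside 932 with several) were kept, and each gene was read at its brightest probe set by mean signal, leaving 18194 genes. Arrays labelled Alox15-/- were compared with WT by limma 3.58.1 in R 4.3.3 (lmFit, eBayes, two-sided, no block, Benjamini-Hochberg over all genes, threshold 0.05). The code was tested on simulated data. The number of arrays limits the precision. "Without overlap" means that both arrays of 1 group lie above both of the other.

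Members and lists were chosen with earlier results of these data known. Named genes were the 3 highest and 3 lowest of each complex, members with unadjusted p under 0.05, isoforms, and the extremes of each list. Others were named after their values were seen. Alternatives covered normalization, dim genes, probe sets, variance prior, array weights, replicate block and left-out arrays. Same-numbered arrays did not deviate together (r = -0.02 across genes). Figures used matplotlib 3.10.9.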

Additional observations from a re-analysis of the deposited data

How the results depend on the processing

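Normalizing again, centring, cyclic loess and filters on dim genes kept each complex median within the spread between replicate arrays. Another variance prior, array weights and the replicate block act only on the variances here, as the groups are of equal size. The medians could not move under them, so these settings are no check of the medians. None of the settings named so far put a member past the adjusted threshold. Each probe set counted (chosen after seeing the data) gave medians of 0.033 in complex II, -0.018 in complex III and 0.039 in complex IV. Without 1 array the medians ran from 0.051 to 0.10 for all members, 0.08 to 0.11 in complex I, 0.0097 to 0.097 in complex II, -0.0038 to 0.062 in complex III, 0.061 to 0.12 in complex IV and 0.051 to 0.12 in complex V. Members higher at unadjusted limma p under 0.05 were 5 without the lowest 30 or 50 percent of genes, 13 (and 1 lower) with the mean-dependent prior variance, 1 with the replicate block, and 0 to 3 (lower 0 to 1) without 1 array. With that prior variance 8.68% of all genes lay under 0.05. At the dimmest probe set the sign changed for Acad9 (-0.53), Cox16 (0.46), Cox7a2 (-0.058), Cox8c (-0.026), Ndufb2 (-0.18), Sdha (-0.29), Sdhd (0.071) and Uqcc1 (-0.36), and at the mean of probe sets for Sdha (-0.088) and Sdhd (0.035). Sdhd was 0.0019 with centred arrays. Without 1 array the sign varied for 32 of the 81 members. Among the genes chosen by the naming rule, those of the lists included, it varied for Atp5e from -0.11 to 0.033, Atp5g1 from -0.062 to 0.43, Atp5g3 from -0.056 to 0.094, Atp5md from -0.083 to 0.092, Atp5pb from -0.011 to 0.043, Atpaf2 from -0.033 to 0.09, Cox7a2l from -0.04 to 0.014, Ndufa4 from -0.037 to 0.081, Ndufa4l2 from -0.018 to 0.49, Ndufa7 from -0.49 to 0.035, Ndufaf3 from -0.72 to 0.12, Ndufb1 from -0.56 to 0.37, Sdha from -0.019 to 0.059, Sdhaf4 from -0.13 to 0.16, Sdhd from -0.044 to 0.043, Uqcc1 from -0.013 to 0.21 and Vdac2 from -0.074 to 0.063. Alox15 ran from 6.08 to 6.36 without 1 array and was not called then, with adjusted limma p from 0.172 to 0.328 on fewer arrays. The causes were not tested.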

Other observations

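Genes of import, inner membrane shape and metabolite transport had 17 of 19 above 0, with a median of 0.10 and 10 without overlap, all higher, where 21.4% of all genes were. Slc25a5, an ADP/ATP carrier that brings ADP to the ATP synthase, read 11.88 and 11.85 in WT, compared with 12.10 and 12.15 under the Alox15-/- label, a difference of 0.26 ± 0.13 (SE; limma adjusted p = 0.686). Vdac2, a channel of the outer membrane, differed by -0.01. Citric acid cycle enzymes had 11 of 16 above 0 with a median of 0.06. Dld, the dihydrolipoamide dehydrogenase shared by several complexes, read 9.16 and 9.17 in WT, compared with 9.66 and 9.56 under the Alox15-/- label, a difference of 0.44 ± 0.13 (SE; limma adjusted p = 0.583), and Sucla2 differed by -0.26. None of either list passed the adjusted limma threshold, and at an unadjusted p under 0.05 Dld alone was higher, where 4.2% of all genes lay.

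Regulators of mitochondrial genes had 7 of 16 above 0 and a median of -0.06, and none passed the adjusted limma threshold. At an unadjusted p under 0.05 there was 1 higher and 1 lower, where 4.2% and 3.57% of all genes lay. Ppargc1a, a coactivator of respiratory genes, read 6.53 and 6.04 in WT, compared with 5.14 and 4.41 under the Alox15-/- label, the last 2 below the bacterial control. It was the lower gene of that count, at -1.51 ± 0.30 (SE; limma adjusted p = 0.487, unadjusted p = 0.0031). The size of its difference rests on those readings below the control. Its relative Ppargc1b read 7.45 and 7.09 in WT, compared with 7.94 and 7.69 under the Alox15-/- label, a difference of 0.54 ± 0.18 (SE; limma adjusted p = 0.629). Nrf1 and Tfam, which act on nuclear and mitochondrial genes of respiration, differed by 0.11 and 0.19.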
